A study of Mus musculus with 6 samples.

Results

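Each gene described here had at least 2 different probes that went from below detection to detection in B cell progenitors 24 h after Ebf1 was put back. This holds for those probes only, since in 6 of the genes a further probe of the name was detected in the control group. A gene name entered the set when 2 or more of its probes were not well above background on any of the 3 control virus arrays and were well above background on at least 2 of the 3 Ebf1 virus arrays, with at least 1 probe so on all 3. "Well above background" is the detection flag of the scanner software, and a probe with that flag is called on, or detected, here. Names that start with Vpreb, Igll, Myh, Mybp, Tnn, Col, Kcn, Scn, Cacn, Ppl, Pkp, Gata, Hes or Dll were left out, which removed 6 that otherwise passed (Gata2, Kcnt1, Mybph, Myh6, Ppl and Vpreb3). The rule found 43 genes among 27827 gene names on the array, of which 8873 had 2 or more probes. These genes rest on 87 probes, since 42 genes had 2 qualifying probes and 2410066E13Rik had 3.

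Total RNA came from 2 groups of 3 mouse samples each. All 6 samples were Ebf1 -/- pre-pro-B cells, the fraction A progenitors (Fr.A) that precede B lineage commitment, and the genotype field of the labels writes the allele as Ebf -/-. The culture medium of every sample held 10 ng/ml of each of 3 cytokines (Flt3 ligand, stem cell factor, interleukin 7), over a feeder layer of the OP9 stromal line. The control group received the retrovirus pMYs-IRES-EGFP and the other group received the same vector carrying Ebf1beta. Virus for both was made in Plat-E packaging cells, and after 24 h the cells that expressed EGFP were sorted. Expression of Ebf1 from a viral vector in a null background is thus what is compared with the empty vector, and the age of the source animals is not given in the sources used here. Whether the samples of a group came from separate cultures is not stated either, so p-values measure the spread between these samples only, which may be technical.

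Ebf1, early B cell factor 1, is a DNA-binding protein that is needed for progenitors to enter the B lineage. It binds a palindromic site as a dimer, can bind sites in closed chromatin, and acts with E2A and Pax5 to switch on genes of the pre-B cell receptor and its signalling chain. In the absence of Ebf1, cells stall at the pre-pro-B stage and keep access to other blood lineages. None of the genes of the present set was in any of the 14 gene lists for Ebf1 targets, blood and other cell types used here, and the rule had removed Vpreb and Igll names.

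The values that chose the genes are the detection flags in both groups, so the levels below are a description of the chosen genes and no test was made on them. A level is the log2 processed signal of a probe minus the 75th percentile of its array. Since each qualifying probe was off in the control group, only a lower bound of its change can be given. That bound, written as "at least N-fold", sets the mean Ebf1 level against the mean of, per control array, the higher of the probe's own level and the lowest level of any probe that was on. No fold is given where the bound is under 1. Bounds of different probes have no order as changes: a low bound can belong to a large change that started far under the detection limit.

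The probes themselves are 60-base oligonucleotides. Their mm9 positions are those the authors' files give, and an exon or intron annotation of that build was not used here. The positions of 13 probes in 12 of the genes span more than 60 bases of the genome, so these probes match spliced RNA across an exon junction. The sequences of 6 of them are shown because they report joined exons of genes on which the results turn: 4 had a bound over 2-fold and 2 (Plch2 and Syt7) had low bounds beside a second probe with a high one. Each is written 5' to 3' in the sense of the RNA, without capitals because the place of the junction within the probe was not determined here.
Arhgdig, chr17:26336735-26336980, minus strand: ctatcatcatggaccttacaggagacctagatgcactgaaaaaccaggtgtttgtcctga
Tnxb, chr17:34855900-34856040, plus strand: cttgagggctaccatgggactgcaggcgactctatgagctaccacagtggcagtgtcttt
Mfsd4, chr1:133925095-133937146, minus strand: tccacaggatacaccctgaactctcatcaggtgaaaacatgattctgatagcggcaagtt
Sned1, chr1:95186644-95192337, plus strand: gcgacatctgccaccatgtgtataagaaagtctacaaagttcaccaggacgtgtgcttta
Plch2, chr4:154373121-154374222, minus strand: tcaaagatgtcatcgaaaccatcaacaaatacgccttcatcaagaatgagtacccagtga
Syt7, chr19:10513872-10517336, plus strand: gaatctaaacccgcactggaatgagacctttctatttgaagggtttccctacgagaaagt

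By the given positions, the 2 probes of a gene lay apart on the genome, at a median of 3244 bases between midpoints (81 to 38598). The given positions of 1 Robo3 probe and 1 Ang4 probe cover only part of the probe, so the distances in these genes are uncertain. In Mfsd4 the spliced probe above spans 12052 bases, and the other qualifying probe (chr1:133933547-133933606) lies inside that interval. The 2 Robo3 probes share a stretch of 20 bases, which is shown because it means that they are not fully separate readings.
Robo3, shared by both probes: cggttttagttgtcttggga

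Across the arrays, detection differed between the groups and between the Ebf1 arrays. The share of all 41174 probes that were on was 46.3% to 50.2% on the control arrays and 52.7%, 50.3% and 59.8% on Ebf1 arrays 1, 2 and 3. Known Ebf1 targets were higher in 26 of 38 tested genes and lower in 3, with a median log2 change of 1.43. Markers of committed B cells were higher in 9 of 11 (limma, adjusted p under 0.05). Of all 13629 tested gene names, 12.6% were higher and 11.1% lower. A gene not detected on every control array was tested only through the Ebf1 group, which favours a call of higher. Of the known Ebf1 targets, 27 to 29 were on per control array and 37 to 40 per Ebf1 array. Of the committed B cell list, 7 were on per control array and 11 to 14 per Ebf1 array. Part of these list counts therefore follows from the filter. All 15 genes of the pre-pro-B and lymphoid progenitor list were detected on all arrays, as the labelled cell type has them; 6 of them were lower with the Ebf1 virus (Cd34, Cd93, Spn, Cd27, Il7r and Kit) and 2 higher. Of the 22 tested stromal feeder markers, 6 were higher and the others did not pass, with a median log2 change of 0.55. On each control array 21 of that list's 30 genes were on, and on the Ebf1 arrays 22 to 23, while Lum, Dcn, Postn and Pdgfra were off on all 6. Its summed linear signal, in units of the array's 75th percentile, was 47.0 to 50.9 in the control group and 57.1 to 71.6 in the Ebf1 group. The same sum was higher on every Ebf1 array for the known Ebf1 targets (58.6 to 59.1 against 633 to 699). So it was for the committed B cell list (5.45 to 6.10 against 535 to 595) and for 4 more lists. From 24.0 to 29.1 it went to 46.1 to 56.5 for the erythroid and megakaryocyte list (6 of 10 tested genes higher, 3 lower). For the neuron list it went from 15.7 to 24.96 to 46.8 to 51.1 (1 of 6 tested genes higher, median log2 change -0.18). For the epithelial list it went from 4.13 to 4.92 to 6.25 to 6.87 (3 of 6 higher). For the liver list it went from 0.207 to 0.232 to 4.91 to 5.88 (2 of 3 higher). The sum was lower on every Ebf1 array for further lists. For the myeloid list it was 24.4 to 31.0 against 14.1 to 15.3 (6 of 9 tested genes lower, 2 higher). For the dendritic list it was 85.4 to 96.9 against 66.3 to 73.2 (4 of 9 lower, 1 higher). For the T cell list it was 28.1 to 30.8 against 24.5 to 26.8 (4 of 10 lower, 1 higher). For the endothelial list it was 6.25 to 7.84 against 4.12 to 5.06 (2 of 5 lower, 2 higher). For the mast cell list it was 2.38 to 3.18 against 0.899 to 1.18 (2 of 4 lower, 2 higher). A linear sum follows its brightest genes and need not follow the number of genes that changed. The part of feeder or other cells in the results below was not tested, and in bulk samples fewer cells of a type cannot be told apart from less RNA per cell. The array's own Ebf1 probe was on in every sample, at 0.44 ± 0.39 (SD, n = 3) in the control group and 0.29 ± 0.09 in the Ebf1 group, a log2 difference of -0.15 ± 0.21 (SE; limma adjusted p = 0.646). Whether this probe (chr11:44818365-44818424) lies in the part removed from the null allele, or in the viral insert, is not given in the sources used here, so it checks no label.

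By the detection flags, probes went from off to on far more often than from on to off. The detection limit differed between the groups as well. The lowest level of any probe that was on was -4.79, -4.35 and -4.96 on control arrays 1 to 3. On Ebf1 arrays 1 to 3 it was lower, at -5.43, -5.02 and -5.16. A probe at the same level can thus be on in the Ebf1 group and off in the control group. The part of this difference in the counts below was not tested. Control arrays 1 and 3 shared a slide and a scan, and Ebf1 arrays 2 and 3 shared another. For these arrays the group cannot be told apart from the slide and scan. Control array 2 and Ebf1 array 1 were together on a further slide. Of 19377 probes off on all 3 control arrays, 558 (2.88%) were detected on all 3 Ebf1 arrays. Of 15747 probes off on all 3 Ebf1 arrays, 23 (0.146%) were detected on all 3 control arrays. By gene name, 528 had at least 1 probe that went from off to on, and 250 of those had 2 or more probes on the array; the 43 genes are the ones in which a second probe did so too, after the left-out names. The mirrored rule, from on to off with 2 probes, found 1 gene, Mboat2, an acyltransferase of membrane phospholipids, which was at least 2.06-fold lower with the Ebf1 virus.

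The Ebf1 arrays did not contribute evenly to this asymmetry. Among the probes off on all control arrays, 7.29% were detected on Ebf1 array 1, 4.15% on array 2 and 19.8% on array 3. The matching shares for probes off on all Ebf1 arrays were 3.00%, 1.13% and 2.00% on control arrays 1 to 3. Array 3 gave the highest Ebf1 level for 43 of the 87 qualifying probes, array 2 for 24 and array 1 for 20. The part of the higher detection on array 3 in the choice of the genes was not tested. As the rule allows, 69 of the 87 probes were detected on all 3 Ebf1 arrays, and of the other 18, 15 were missing on array 2, 1 on array 1 and 2 on array 3. Applied to the remaining arrays only, the rule found 28 genes without Ebf1 array 3 and 27 without Ebf1 array 1, in both cases all from among the 43, and 47 without Ebf1 array 2, of which 40 were among the 43. It found 52, 44 and 60 without control arrays 1, 2 and 3. All 43 were among them each time, which was fixed in advance, since leaving out a control array only removes a condition. With an Ebf1 array left out, a qualifying probe had to be detected on both remaining ones.

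**Figure D1:**
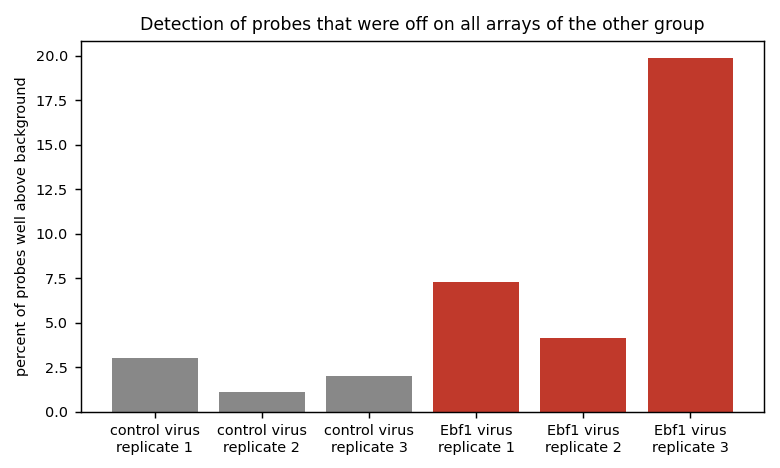
Percent of probes well above background on each array, among probes that were off on all 3 arrays of the other group (15747 probes for the control arrays, 19377 for the Ebf1 arrays; bars start at 0, grey for control virus and red for Ebf1 virus). Each Ebf1 bar, from 4.15% to 19.8%, is above each control bar, from 1.13% to 3.00%, and the bar of Ebf1 replicate 3 is the tallest.

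Over the set, 25 genes had every qualifying probe detected on all 3 Ebf1 arrays and 18 had 1 probe detected on 2 of 3. Taking for each gene the smaller bound of its qualifying probes, the median was at least 1.26-fold and the largest was at least 35.5-fold (Arhgdig). Both probes exceeded 2-fold in 14 genes, 1 of the probes did in 13 and neither in 16. Both exceeded 4-fold in 8 genes and 10-fold in 4. In 11 genes the smaller bound was under 1. These bounds hold on the scale of the processed signal. With normexp correction and an offset of 50, 43 of the 87 probes had a bound over 1.5 times lower, and the largest ones became 10.6 for Plch2 (from 69.7), 11.4 for Mfsd4 (from 55.9), 9.61 for Fndc5 (from 49.9) and 10.3 for Arhgdig (from 48.9). The 3 Ebf1 levels all lay above the 3 control levels for 75 of the 87 probes and for every qualifying probe in 32 genes, beside 10.8% of all probes on the array and 18.8% of the tested ones. Of the 69 qualifying probes that were tested, 65 passed limma's threshold for higher, beside 11.5% of all tested probes (10.2% were lower). Over the whole array 2349 probes were higher and 2085 lower; with scaling to the array median, which moves the median change of all gene names from -0.06 to -0.37, the split was 1256 to 2642. These shares follow from the rule, which used the same contrast, and nothing is read from them. Only 1 slide held arrays of both groups, control 2 and Ebf1 1; from these 2 arrays alone the smaller bound was over 1 in 17 of the 43 genes, with a median of 0.923 over the set.

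**Figure D2:**
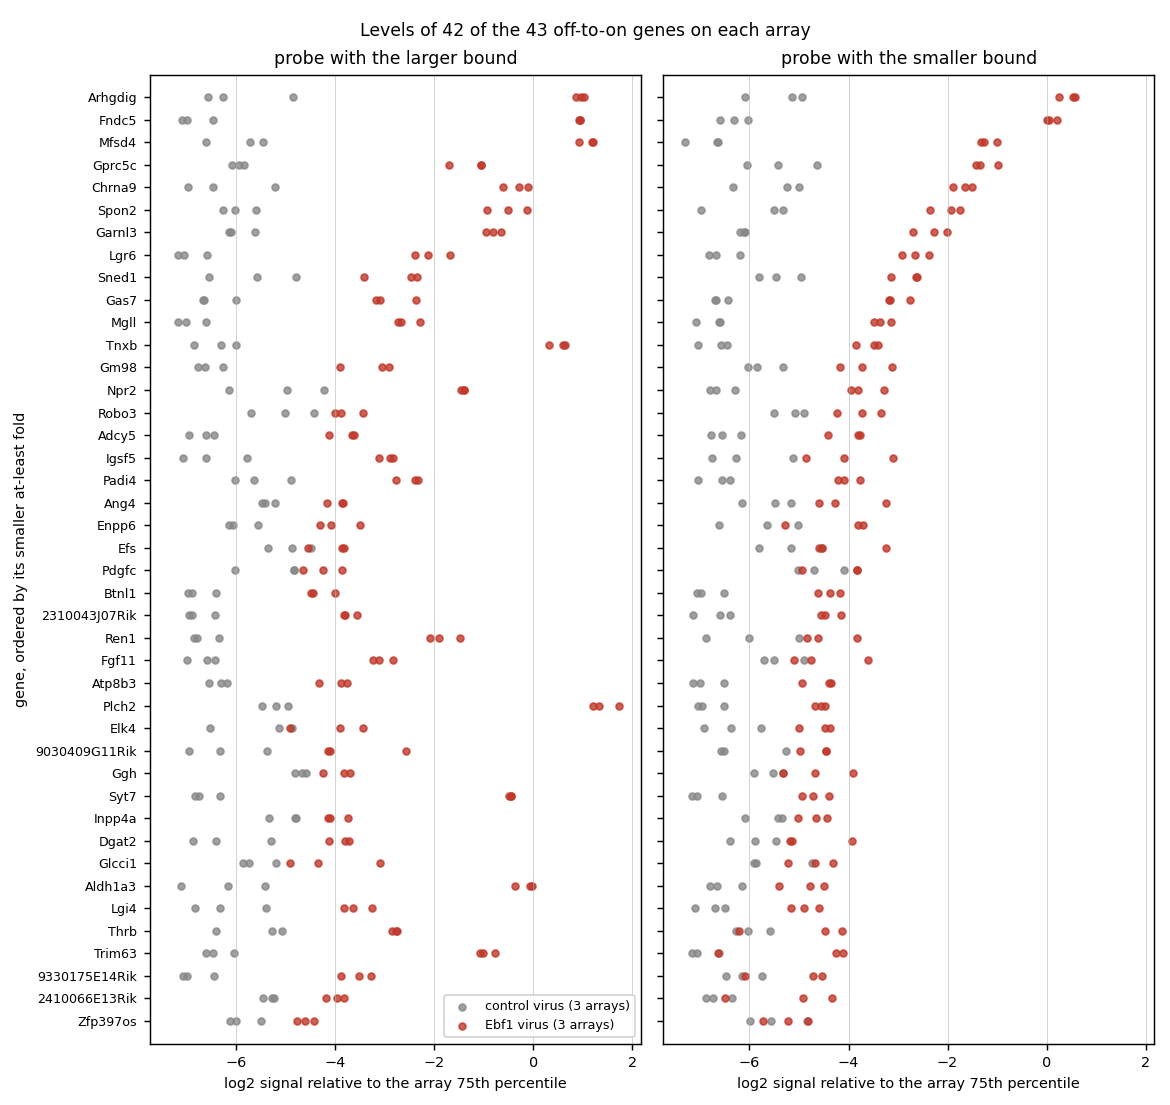
Level of 42 of the 43 genes on each of the 6 arrays (log2 signal relative to the array's 75th percentile; grey points, 3 control virus arrays; red points, 3 Ebf1 virus arrays), for the qualifying probe with the larger bound at left and the smaller bound at right. Control points lie between -7.30 and -4.10 and Ebf1 points between -6.64 and 1.72, and in the lower rows at right some red points fall among the grey ones.

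**Figure D3:**
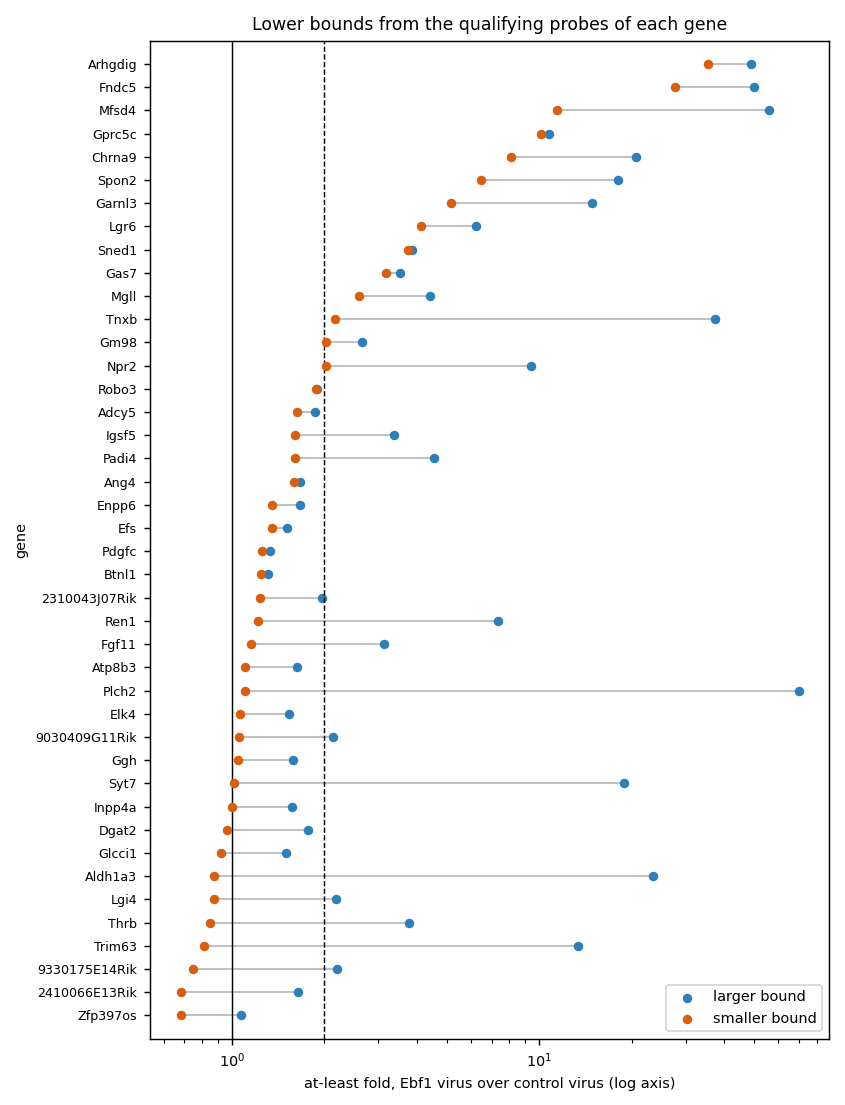
Lower bound of the fold change of 42 of the 43 genes from their qualifying probes (log axis; blue, larger bound; orange, smaller bound; solid line at 1, dashed line at 2). The smaller bound is over 2-fold in 14 genes, and the bounds of a gene differ most in Plch2, at 1.1 and 69.7.

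Genes for cell-surface receptors and adhesion made up 7 of the 43, and both probes exceeded 2-fold in 4 of them, with a median smaller bound of 2.03. Chrna9 encodes a subunit of the acetylcholine-gated channels of inner ear hair cells. Its probes were at -6.98, -6.47 and -5.21 and at -6.33, -5.00 and -5.25 on the control arrays, and at -0.11, -0.60 and -0.30 and at -1.52, -1.88 and -1.65 on the Ebf1 arrays. The groups lay far apart on both, with bounds of at least 20.6-fold and 8.11-fold. Gprc5c, an orphan receptor of the retinoic acid-induced family, had control levels of -6.09, -5.94 and -5.84 and Ebf1 levels of -1.06, -1.06 and -1.69 on the probe at chr11:114730346-114730405. Its second probe read -5.42, -6.05 and -4.63 against -1.43, -0.99 and -1.34, so that the 2 probes gave nearly the same bound, at least 10.8-fold and 10.1-fold.

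Lgr6 is a receptor for R-spondins, which strengthen Wnt signals, and marks stem cells of skin. Its first probe was at -7.05, -6.60 and -7.17 in the control group and at -2.13, -1.68 and -2.39 in the Ebf1 group. On the second probe the levels were -6.67, -6.18 and -6.81 against -2.93, -2.38 and -2.66. No level of one group reached those of the other, and the bounds were at least 6.22-fold and 4.12-fold. Npr2, the guanylyl cyclase receptor for C-type natriuretic peptide, gave unequal bounds. The probe at chr4:43663890-43663949 was at -6.15, -4.22 and -4.98 against -1.41, -1.45 and -1.40 (at least 9.43-fold), and the probe at chr4:43661226-43661285 was at -6.69, -6.29 and -6.79 against -3.96, -3.28 and -3.81 (at least 2.03-fold).

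The other receptor genes stayed near the detection limit. Robo3, a Robo family receptor of commissural axons, had Ebf1 levels of -3.45, -4.01 and -3.88 on one probe and -3.73, -4.24 and -3.35 on the other, with bounds of at least 1.90-fold and 1.88-fold. As noted, its probes share 20 bases. Igsf5, an immunoglobulin-like protein of tight junctions, had bounds of 3.38 and 1.61, and Ebf1 array 1 stayed lowest on its dimmer probe (-4.86 against -4.08 and -3.11 on arrays 2 and 3). Btnl1, a butyrophilin-like protein known from gut epithelium, had bounds of 1.31 and 1.24, and its Ebf1 levels, -4.63 to -4.01, were clear of its control levels, -7.06 to -6.41.

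Among the 8 genes for secreted and matrix proteins, both probes exceeded 2-fold in 4 and 1 probe did in 2. Fndc5 encodes the membrane precursor of irisin, a peptide shed by muscle. Its probe at chr4:128821749-128821808 was at -6.99, -6.47 and -7.09 in the control group and at 0.92, 0.95 and 0.95 in the Ebf1 group. The second probe was at -6.32, -6.02 and -6.60 against -0.00041, 0.21 and 0.04. Fndc5 was thus at least 49.9-fold and 27.6-fold higher by its 2 probes, and its Ebf1 levels on the first were nearly equal across arrays. Spon2, a secreted spondin that binds microbial surfaces, was at -6.02, -6.28 and -5.60 against -0.13, -0.51 and -0.94 on one probe and at -5.32, -5.50 and -6.98 against -1.74, -1.93 and -2.35 on the other. Its bounds were at least 18.04-fold and 6.47-fold, with the groups apart on both.

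Tenascin XB (Tnxb), a matrix glycoprotein of connective tissue, was higher by both of its probes, whose bounds differed. The spliced probe shown above was at -6.85, -6.30 and -6.01 in the control group and at 0.61, 0.32 and 0.64 in the Ebf1 group (at least 37.3-fold). The other probe (chr17:34848502-34848561) was at -7.04, -6.57 and -6.45 against -3.86, -3.49 and -3.40 (at least 2.17-fold). Both readings put every Ebf1 array above every control array. Sned1, a secreted protein with nidogen and fibronectin domains, gave like bounds of at least 3.87-fold and 3.74-fold. Its spliced probe was at -4.96, -5.46 and -5.80 against -3.15, -2.62 and -2.63.

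Ren1 encodes renin, the kidney protease that starts the angiotensin cascade. Its probe at chr1:135256659-135256718 was at -6.79, -6.34 and -6.85 in the control group and -2.08, -1.49 and -1.91 in the Ebf1 group, at least 7.35-fold higher. The probe at chr1:135250767-135250826 was at -6.87, -6.01 and -5.01 against -4.83, -4.62 and -3.82, at least 1.21-fold higher. Some mouse strains carry a near-identical second renin gene, so which copy the probes read is uncertain. Ang4, an angiogenin of intestinal Paneth cells and likewise 1 of a family of close copies, had bounds of 1.67 and 1.59. Pdgfc, a platelet-derived growth factor, had bounds of 1.33 and 1.26, and on 1 of its probes Ebf1 array 2 (-4.94) lay below control arrays 2 (-4.10) and 3 (-4.70). Lgi4, a secreted protein of Schwann cell myelination, was at least 2.18-fold higher on 1 probe and had no usable bound on the other.

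The 9 genes for intracellular signalling and the cytoskeleton held the largest single bound, that of Plch2, and 2 whose smaller bound was under 1. Arhgdig is a GDP-dissociation inhibitor, which keeps small GTPases inactive in the cytosol. Its control levels were -6.57, -6.27 and -4.85 on one probe and -6.09, -5.14 and -4.94 on the spliced probe shown above. Its Ebf1 levels were 1.02, 0.97 and 0.86 and, on the spliced probe, 0.25, 0.58 and 0.53. No other gene had so large a smaller bound: at least 48.9-fold and 35.5-fold. Garnl3, a protein with a Rap GTPase-activating domain, was at -6.14, -6.10 and -5.61 against -0.82, -0.65 and -0.95 on one probe and at -6.10, -6.10 and -6.19 against -2.70, -2.28 and -2.01 on the other. Its bounds were at least 14.9-fold and 5.18-fold. Gas7, an actin-binding protein of growth-arrested cells and neurons, had bounds of 3.53 and 3.18 with Ebf1 levels from -3.19 to -2.37.

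Plch2, a phospholipase C of the eta class, had the widest gap between the bounds of its probes. The probe at chr4:154357637-154357696 was at -4.96, -5.20 and -5.48 in the control group and at 1.72, 1.33 and 1.21 in the Ebf1 group, at least 69.7-fold higher. The spliced probe shown above was at -6.96, -6.51 and -7.05 against -4.47, -4.55 and -4.67, at least 1.1-fold higher. Both were detected on all 3 Ebf1 arrays and off on all 3 control arrays, and levels of different probes cannot be set against each other.

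The remaining signalling genes were low. Adcy5, an adenylyl cyclase, had bounds of 1.87 and 1.62 from probes that abut on the genome, with Ebf1 array 1 lowest on both (-4.12 and -4.42). Efs, a docking protein of Src kinases, had bounds of 1.51 and 1.35, and its groups overlapped on both probes: on the first, Ebf1 array 2 (-4.54) lay under control array 2 (-4.48), and on the second, Ebf1 arrays 1 (-4.60) and 2 (-4.54) lay under control array 3 (-4.53). Fgf11, an intracellular member of the fibroblast growth factor family, had bounds of 3.12 and 1.16, and on its spliced probe the groups overlapped too. Inpp4a, a phosphoinositide phosphatase, had a larger bound of 1.57 and none usable from its second probe.

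Enzymes and transporters numbered 8, with both probes over 2-fold in 2 (Mfsd4 and Mgll). Mfsd4, now Mfsd4a, belongs to the major facilitator superfamily of membrane transporters. Its unspliced probe was at -5.71, -6.62 and -5.46 in the control group and at 0.92, 1.21 and 1.18 in the Ebf1 group, and the spliced probe shown above was at -6.64, -6.65 and -7.30 against -1.32, -1.0 and -1.26. The bounds were at least 55.9-fold and 11.4-fold. Mgll, the lipase that breaks down monoacylglycerols such as the endocannabinoid 2-arachidonoylglycerol, was at -7.02, -6.60 and -7.18 against -2.29, -2.74 and -2.66 on one probe (at least 4.40-fold) and at least 2.59-fold higher on the other.

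Padi4, which converts arginine to citrulline in histones, had bounds of 4.53 and 1.60. Its brighter reading was -5.65, -6.03 and -4.89 against -2.77, -2.39 and -2.33, without overlap. Enpp6, a choline phosphodiesterase of oligodendrocytes, had bounds of 1.67 and 1.35. On its second probe Ebf1 array 1 (-5.29) fell below control array 1 (-5.03) while the other Ebf1 arrays (-3.70 and -3.81) were above all controls. Aldh1a3, a retinaldehyde dehydrogenase that makes retinoic acid, is named here after its values were seen: 1 probe was at -7.12, -6.16 and -5.42 against -0.07, -0.37 and -0.03 (at least 23.4-fold), and the other gave no usable bound. Ggh, a folate-trimming hydrolase, and Atp8b3, a phospholipid flippase known from sperm, had larger bounds of 1.58 and 1.63.

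In the 7 genes for gene regulation, vesicles and protein turnover, both probes exceeded 2-fold in 1 and 1 probe did in 4. The former was Gm98, now Myrf, a membrane-bound transcription factor of myelinating cells, with bounds of 2.66 and 2.03. Syt7, a calcium sensor of vesicle fusion, was at -6.75, -6.32 and -6.84 against -0.45, -0.46 and -0.48 on one probe (at least 18.9-fold). Its spliced probe was at -7.05, -6.55 and -7.17 against -4.94, -4.71 and -4.39 (at least 1.01-fold). Trim63, the muscle ubiquitin ligase MuRF1, was at -6.04, -6.48 and -6.61 against -0.78, -1.02 and -1.09 on one probe (at least 13.4-fold), while its second was off on Ebf1 array 1 (-6.64) and detected on arrays 2 and 3 (-4.11 and -4.26). Thrb, a nuclear receptor for thyroid hormone, was at least 3.76-fold higher on one probe, and on its second, Ebf1 array 2 (-6.20) lay within the control levels. Plch2, Syt7, Aldh1a3, Trim63, Ren1 and Padi4 are the 6 genes with 1 bound over 4-fold and the other under 2-fold.

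Elk4, an Ets factor that partners serum response factor, had bounds of 1.54 and 1.06, and on its first probe Ebf1 array 1 (-4.91) lay under control array 1 (-4.87). The bounds of 9030409G11Rik (Kazn, a protein of cell junctions) were 2.13 and 1.05. The 4 names of unsettled role were all near the limit: the median smaller bound was under 1, and 2310043J07Rik (Upk3bl) had bounds of 1.96 and 1.24. The 3 smallest bounds of the set, 0.682, 0.686 and 0.748, at which no fold is given, belonged to Zfp397os, 2410066E13Rik (Mturn) and 9330175E14Rik. In each, 1 probe was off on 1 Ebf1 array, at -5.73, -6.49 and -6.10 on array 2, inside the range of that probe's control levels.

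The edge of the rule passed through genes with similar readings. Just outside it, 36 names had a second probe detected on 1 Ebf1 array only and 13 had a second probe detected on 1 control array. Ptgir, the prostacyclin receptor, was at least 32.2-fold higher by its qualifying probe, and its second read -5.96, -6.07 and -6.12 against -4.50, -4.95 and -4.70. Ms4a1, the B cell surface protein CD20, was at least 40.9-fold higher by its qualifying probe, and its second was detected on control array 2 (-2.96, against -7.12 and -7.29 on the others) and at 1.83 to 2.34 on the Ebf1 arrays. Just inside it were the 3 genes with the smallest bounds.

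Being off on 2 probes did not mean that every probe of the name was off. In 14 of the 43 genes the array held further probes, 20 in all. Of these, 9 were off on all 6 arrays, and 8 in 6 genes were detected on at least 1 control array. For 4 genes a further probe was detected on all 3 control arrays. The Sned1 probe at chr1:95197441-95197500 read -0.57, -0.15 and 0.01 in the control group and 2.93, 2.91 and 2.78 in the Ebf1 group; the array describes it as a splice form named SNEP. The further Dgat2 probe was at -3.64, -3.31 and -3.81 against -0.54, -0.87 and -1.37. Dgat2 makes triacylglycerol, and its qualifying probes, with a larger bound of 1.77, were at -6.86 to -5.29 in the control group.

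In Elk4 and Mfsd4 the further probes differed less between the groups. The Mfsd4 probe at chr1:133923547-133923606 was at -2.94, -3.13 and -2.84 against -2.20, -1.88 and -2.08. The Elk4 probe at chr1:133928613-133928672 was at 1.11, 1.12 and 1.12 against 2.15, 1.94 and 1.92; it was designed to an unclassified clone and lies, on the plus strand, inside the interval of the minus-strand Mfsd4 probes. For these 4 genes the off state therefore holds for the qualifying probes and not for the whole name. Of the 20 further probes, 8 could be tested, 6 of which were higher and 0 lower by limma; 11.5% of all tested probes were higher and nothing is read from the count, since the genes were chosen on this contrast.

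**Figure D4:**
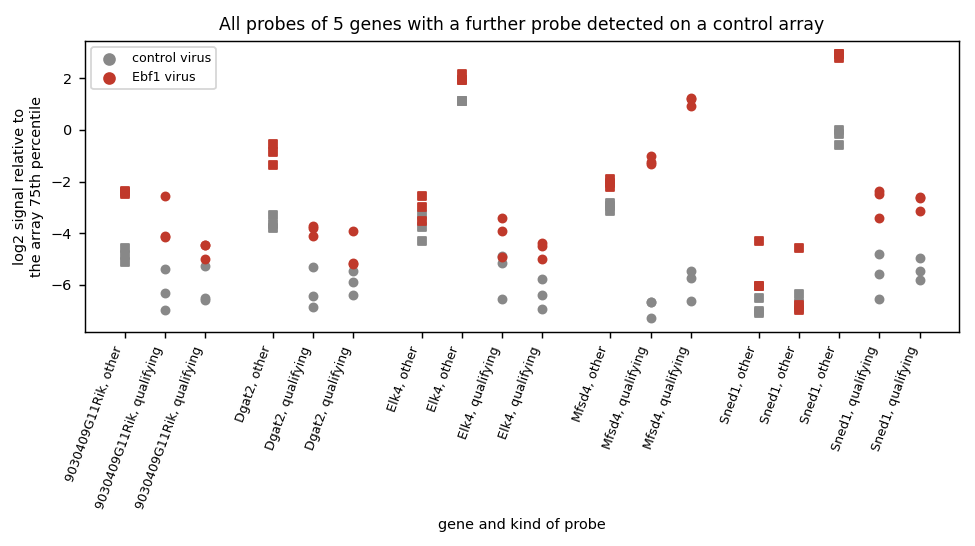
Levels of all probes of 5 of the 6 genes that had a further probe detected on at least 1 control array (log2 signal relative to the array's 75th percentile; circles, qualifying probes; squares, other probes; grey, 3 control virus arrays; red, 3 Ebf1 virus arrays). The highest squares belong to Sned1, with control levels of -0.57 to 0.01 and Ebf1 levels of 2.78 to 2.93, while the grey circles of all 5 genes lie at or under -4.79.

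By position, 7 of the genes lay on chromosome 1 and 7 on chromosome 4, which hold 591 and 535 of the names with 2 or more probes. Distances between genes of the set run between the midpoints of the stretches that their qualifying probes span. Elk4 and Mfsd4 lay 17.3 kb apart on opposite strands of chromosome 1, and Ren1 and Lgr6 followed at distances of 1323 and 1628 kb. Btnl1 and Tnxb were 330 kb apart on chromosome 17, Gm98 and Syt7 226 kb apart on chromosome 19, and Padi4 and Kazn 1376 kb apart on chromosome 4. Between Elk4 and Lgr6 (chr1:133906241-136883841), 29 other gene names were tested, of which 9 were higher and 2 lower, beside 12.6% and 11.1% of all tested gene names. The 9 include Sox13 and Mybph. Sox13 was off in the control group and was tested only through the Ebf1 group, and Mybph passed the rule and was removed by its name. The stretch itself was chosen after the genes of the set were known, so nothing is read from its count.

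The nearest tested name on each side within 100 kb was examined. These distances run from the nearest end of the gene's qualifying probes to the midpoint of the neighbour's probe. There were 52 such neighbours of 35 of the genes, and 19 of them were higher and 2 lower (limma, adjusted p under 0.05), so 36.5% were higher beside 12.6% of all tested gene names. The median log2 change was 0.40 for the neighbours and -0.06 for all gene names. The higher neighbours belonged to 16 of the genes. One of them, ENSMUST00000098492, is by the array's description a transcript of 9330175E14Rik itself, and Myh6 passed the rule and was removed only by its name; without the former 18 of 51 were higher, and without both 17 of 50 (34.0%), alternatives chosen after seeing the data. Filtering bears on this count: 8 of the neighbours were off on all 3 control arrays, passed the filter only through the Ebf1 group and had to be higher, and all 8 were. A further 3 of the higher neighbours were detected on some but not all control arrays, and they too passed the filter only through the Ebf1 group. Of the 39 neighbours that were detected on all 3 control arrays, 8 were higher. The like share over all gene names detected on all 3 control arrays is not given here. When only probes detected on all 6 arrays were tested, 10 of 46 neighbours were higher (21.7%) beside 10.1% of gene names. With the slide as a fixed block 15 of 52 were (28.8%) beside 6.49%.

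Pctk3 (now Cdk18), a PCTAIRE cyclin-dependent kinase 73.2 kb from Mfsd4 and 88.9 kb from Elk4, was measured in both groups. It read -0.09, 0.24 and 0.20 in the control group and 3.46, 3.24 and 3.16 in the Ebf1 group, a log2 rise of 3.17 ± 0.16 (SE; limma adjusted p = 1.27e-05). Sox13, a Sox family transcription factor 22.2 kb from Ren1, was off in the control group (-6.88, -6.41 and -6.94) and at -0.15, -0.98 and -0.54 in the Ebf1 group. It was at least 17.7-fold higher. For Sox13 and the other neighbours that were off in all controls the filter fixed the direction, so no p is given. Other neighbours off in all controls were 4930579J09Rik (now Ppp1r32), 23.5 kb from Syt7 and at least 6.44-fold higher, Btbd17, 77.6 kb from Gprc5c and at least 6.49-fold higher, and E030010N08Rik, 59.1 kb from Sned1 and at least 4.87-fold higher. Myh6, the cardiac alpha myosin heavy chain, 29.6 kb from Efs, was at least 8.86-fold higher. The 2 lower neighbours, named after their values were seen, were B3galt5, a galactosyltransferase 76.6 kb from Igsf5 (log2 change -1.37 ± 0.16, limma adjusted p = 0.00078), and Gramd1a, a sterol transfer protein 59.4 kb from Lgi4 (log2 change -0.67 ± 0.18, limma adjusted p = 0.0359).

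**Figure D5:**
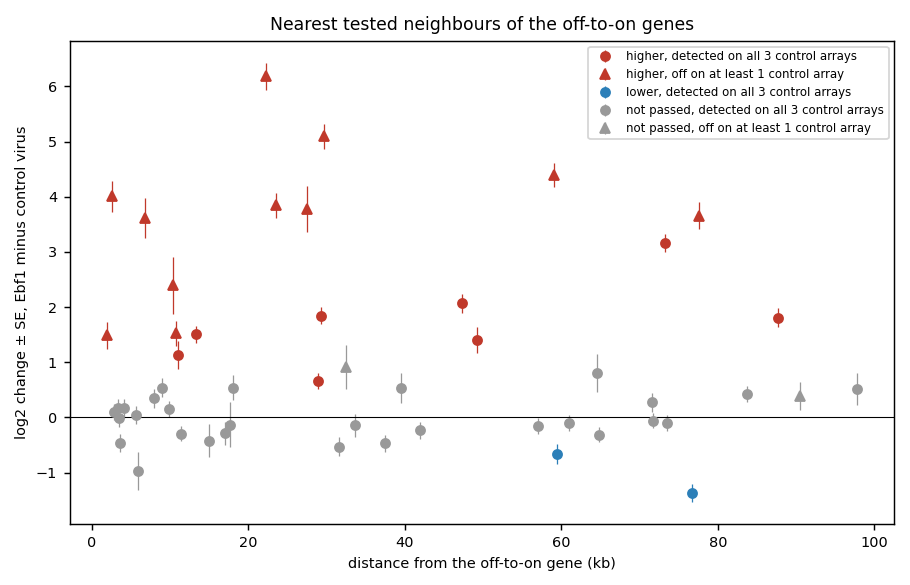
Log2 change (± SE, Ebf1 minus control virus, 3 arrays each) of the 52 nearest tested neighbours against their distance from the off-to-on gene in kb (each neighbour once; red, higher; blue, lower; grey, not past the threshold; circles, detected on all 3 control arrays; triangles, off on at least 1). The 19 red points spread over the whole range of distances, and 8 of them are circles.

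The promoters of the genes were read from RefSeq (assembly GRCm38.p6, 250 bases before to 50 after the start). Promoters were found for 30 of the 43 genes, 40 in all. The core of the Ebf1 site, CCCNNGGG, which reads the same on both strands, occurred in 11 of these 40 (27.5%) and in 13.7% of all 32851 promoters in that table. The longer form TCCCNNGGGA, each match of which also holds the core, occurred in 3 of 40 (7.5%) and in 0.904% of all. The promoters of the set were also richer in G and C, with a median GC content of 63.5% against 52.7%, and the core is made of G and C, so these shares cannot be told apart from base composition. The 3 promoters with the longer form, of Plch2, Robo3 and Efs, are shown with the core in capitals, in the sense of the gene.
Plch2, chr4:155019379-155019678, minus strand: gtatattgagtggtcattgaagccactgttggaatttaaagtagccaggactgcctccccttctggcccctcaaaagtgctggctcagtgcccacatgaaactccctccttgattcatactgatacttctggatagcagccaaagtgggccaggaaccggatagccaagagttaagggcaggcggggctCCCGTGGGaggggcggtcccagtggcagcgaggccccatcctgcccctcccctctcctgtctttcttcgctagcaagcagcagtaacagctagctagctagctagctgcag
Robo3, chr9:37433126-37433425, minus strand: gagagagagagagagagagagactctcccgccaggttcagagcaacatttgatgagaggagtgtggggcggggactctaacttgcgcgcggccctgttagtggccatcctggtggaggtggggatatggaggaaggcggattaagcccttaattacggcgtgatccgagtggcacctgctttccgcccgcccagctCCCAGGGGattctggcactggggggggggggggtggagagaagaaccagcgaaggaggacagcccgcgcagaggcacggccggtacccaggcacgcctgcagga
Efs, chr14:54926739-54927038, minus strand: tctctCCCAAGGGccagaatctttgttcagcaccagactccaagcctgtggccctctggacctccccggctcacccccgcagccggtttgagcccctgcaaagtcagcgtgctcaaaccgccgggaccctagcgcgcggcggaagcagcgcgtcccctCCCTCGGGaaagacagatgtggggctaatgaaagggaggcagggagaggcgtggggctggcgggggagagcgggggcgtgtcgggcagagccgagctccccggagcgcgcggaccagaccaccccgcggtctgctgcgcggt

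In these promoters the core began at base -61 of Plch2, -54 of Robo3 and -245 and -92 of Efs, counted from the gene's start. The matches are letters in a window and no binding was measured. The 3 genes had smaller bounds of 1.1, 1.88 and 1.35.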

How the data were processed

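RNA of 3 control virus and 3 Ebf1 virus samples was measured on 6 Agilent arrays with 1 dye, Cy3. Sample titles gave the groups and their numbering. Per the file headers, the deposited spot intensities are linear and background-corrected, with probe positions on mm9; the scanner software was Agilent Feature Extraction, version 10.5.1.1. The deposited series matrix holds the authors' intensities, which equalled the processed signal. The deposited detection, saturation and outlier flags were used as given: 65 to 116 outlier spots per array were left out and no spot was saturated.

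Levels are log2 processed signal minus each array's 75th percentile, with spots of a probe averaged (41174 probes). A probe was tested if it was well above background on all 3 arrays of a group (20447 probes). Groups were compared with limma 3.58.1 (lmFit, eBayes; R 4.3.3; package data.table, version 1.17.8), as a two-sided test; p-values were adjusted by Benjamini-Hochberg across all tested probes, with 0.05 as threshold. The fit was tested on simulated data. A gene name is represented by its brightest tested probe. The number of arrays limits the precision.

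The members and the gene lists were chosen with earlier results of these data known. Named are the 24 genes with a settled symbol and the largest smaller bound, the 3 with the smallest, those with a further probe detected on all control arrays, up to 6 neighbours by p, and Ebf1; other names were added for their role or after their values were seen. Of the 43 genes, 37 matched a RefSeq symbol by accession. Alternatives were normexp background correction, quantile and median scaling, other filters, slide and replicate blocks, limma's trend, robust and treat options, other flags and distances, and leaving out each array. Same-numbered samples of the 2 groups did not deviate together (correlations -0.169, -0.247 and 0.095), so numbers were not treated as pairs. The largest correlation of any pair across the groups, 0.290, was that of control 2 and Ebf1 1, which shared a slide. The values of 1 gene of the set are not reported here; it stays in the counts.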

Additional observations from a re-analysis of the deposited data

How the results depend on the processing

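The size of the set moved under other rules. From 43 genes it went to 22 with the software's other detection flag (positive and significant), which decides both off and on. It went to 26 with 2 or more probes that were each detected on all 3 Ebf1 arrays (2410066E13Rik stays, with 2 of its 3). With bounds of 2 or more it went to 14. The last 2 rules could only keep or lose genes. With 1 array left out it ranged from 27 to 60. Leaving out a control array could only add genes, and leaving out an Ebf1 array asked for detection on both remaining ones. The median smaller bound, 1.26, became 0.343, 2.03 and 4.65 under the first 3, and ranged from 1.13 to 2.23 with 1 array left out. The value of 0.343 still used the limit of the well above background flag, so it is not a bound by the other flag. The mirrored count of 1 became 0 with the other flag, with each probe required on all 3 arrays and with every probe of the name required, and was 0 to 1 with 1 array left out. Genes higher on all their tested probes, 39 of the 43, became 16 with normexp and 24 without a filter. Of all tested gene names, by their brightest probe, 12.6% were higher in the main setting, 9.82% with normexp and 3.68% without a filter. The rule used the same contrast, so nothing is read from these counts. For the named genes tested, none reversed over all alternatives run, 23 results no longer passed (9 of them with normexp) and 4 newly passed. The rule had chosen the direction of these genes, so the lack of reversals carries no weight. Signal over background limits the set: with normexp correction 20 of the 87 probes had a bound over 2-fold, and the median bound over the probes was 1.29.

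Neighbours called higher, 19, became 11 without a filter and 10 with a filter on all 6 arrays. Neighbours called lower, 2, became 4 with quantile scaling, with eBayes trend and robust and within 500 kb, 1 without a filter and with treat, 0 within 50 kb, and 1 to 2 with 1 array left out. Known Ebf1 targets called higher, 26, became 16 with the slide as a fixed block and 14 with the filter on all 6, and those called lower, 3, became 6 with median scaling. Stromal markers called higher, 6, became 1 with median scaling, 1 without a filter, 2 with the slide block and 0 with treat, and ranged from 1 (without control array 1 or 3) to 6 with 1 array left out. Of all probes, 1256 were called higher with median scaling, 1341 without a filter, 1270 with the slide block and 1011 with treat, and 655, 899 and 351 were called lower without a filter, with the slide block and with treat, or 1015 to 1687 with 1 array left out. The cause of these moves was not tested.

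With the replicate number as a block, stromal markers called higher became 3 and probes called lower 1233, while neighbours called higher became 18. The numbers are only labels here, as the pairing check in the methods shows.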
